A study of Saccharomyces cerevisiae with 6 samples.

Results

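The regions described here are short stretches of chromosome arm at transfer RNA (tRNA) genes in which Rec8 cleavage differed between wild-type (WT) and ctf19-9A budding yeast in meiotic prophase I. They were chosen by position from the authors' deposited table of called 20 bp bins. A bin was taken if its middle lay in or within 500 bp of a nuclear tRNA gene, over 50 kb from the centromere and over 20 kb from a chromosome end, on any chromosome other than I, III and VI. The stretch from 566681 to 594800 of chromosome XV was left out. The rule found 335 bins, covering 6.7 kb, of 14224 bins in the table and of 7088 that met the same limits on the arms. They lay around 60 of the 202 tRNA genes on these arms.

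The 6 samples were 3 WT and 3 ctf19-9A diploid cultures, each from a colony of a different zygote. All carried Rec8 fused to a 3xFLAG tag and micrococcal nuclease (MNase) and a deletion of NDT80, without which cells stay in prophase I. The ctf19-9A cultures also carried the ctf19-9A allele, and the labels describe the background of all as X and Y without explaining the letters. Cells were held in 1% potassium acetate for 4.5 h and given 2 mM CaCl2 for 5 min, which lets the tethered nuclease cut DNA next to Rec8 (ChEC-seq). All 6 cultures also spent 16 h in YPA medium. Cleavage by free MNase was not analysed here.

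Rec8 is the kleisin, the closing subunit, of the meiotic cohesin ring that holds sister chromatids together. Ctf19 is a kinetochore protein, and its phosphorylated N-terminal region recruits the cohesin loader Scc2-Scc4 to centromeres. In ctf19-9A, alanine replaces phosphorylated residues of that region. tRNA genes are transcribed by RNA polymerase III, with promoter boxes inside the gene that are bound by TFIIIC, which in turn places TFIIIB just upstream. In yeast, tRNA genes and their bound TFIIIC are known sites where the cohesin loader and condensin are found on chromosome arms. Cohesin itself is known to gather between genes that are transcribed toward each other.

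Each row of the table holds a bin's log2 fold change and p-value with its false discovery rate (FDR), and only bins with an FDR under 0.05 are present. It holds no value for a single sample, so depth is unknown and no test across samples and no SD between cultures could be made. The standard error (SE) of a bin was computed from its log2 fold change and p-value. Which genotype is the numerator is not stated. It was taken to be ctf19-9A, without a label that settles it. Positive bins were then cut more in the mutant, and the opposite reading would swap each direction given here. In the whole table, positive bins were 5.58% of the 154927 bins that the adjustment implies, and the identity of those bins is unknown. Shares below are therefore of all 20 bp positions in the sequence named.

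At tRNA genes of the arms, all listed bins were positive and the changes were small. The 335 bins had a median log2 fold change of 0.55 (a fold of 1.46, median SE 0.17), and they ran from 0.39 to 1.30 with quartiles at 0.49 and 0.63. The other 6753 arm bins had the same median, 0.55, and a middle range of 0.50 to 0.61 (median SE 0.17). They too were positive without exception, which follows in part from leaving out the stretch of XV that was known to be negative. Of all arm positions, 1.51% were listed as positive. Within 500 bp of a tRNA gene the share was 3.14% (335 of 10674 positions) and in the rest of the arms 1.47%, a ratio of 2.13. At the stricter FDR of 0.01 the background was 0.266% of arm positions, and 45 tRNA-near bins remained, 0.422% of positions there. These made up 13.4% of the tRNA-near bins, against 17.8% of the other arm bins. Counted by gene, 29.7% of the arm tRNA genes had a bin, with an exact 95% binomial interval of 23.5% to 36.5% that treats genes as independent and covers counting error only. The other 142 had none, and an untested bin cannot be told apart from an unchanged one in this table. How many other arm windows of the same size hold a bin was not counted. The share of genes thus has no background to be read against.

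Bins were dense in tRNA genes and in the first 100 bp beside them, and thinned out within 500 bp. Inside tRNA genes 5.34% of positions were listed (43 of 806, in 20 genes). In the first 100 bp outside, the share was 5.30% (5.15% upstream and 5.44% downstream), then 4.06% at 100 to 200 bp, 2.54% at 200 to 300 bp and 2.28% at 300 to 400 bp. At 400 to 500 bp it had dropped to 0.608%, under the 1.47% of other arm sequence, and from 500 to 3000 bp it was 0.781%. Up to 500 bp the median log2 fold change was also lower with distance. It was 0.58 within 100 bp (105 bins at 39 genes) and 0.46 at 400 to 500 bp (12 bins at 5 genes). The last step thus rests on correlated bins of few genes. Its median SE was lower too, 0.13 against 0.19. Past 500 bp the median log2 fold change was higher again. In steps of 100 bp from there to 1000 bp the listed share was under 1.47%, except at 800 to 900 bp (1.51%). The 12 bins just inside the 500 bp limit, at 400 to 500 bp, ran from 0.39 to 0.64 with a median of 0.46. The 19 bins just outside it, at 500 to 600 bp (7 genes), ran from 0.37 to 0.62 with a median of 0.56.

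**Figure D1:**
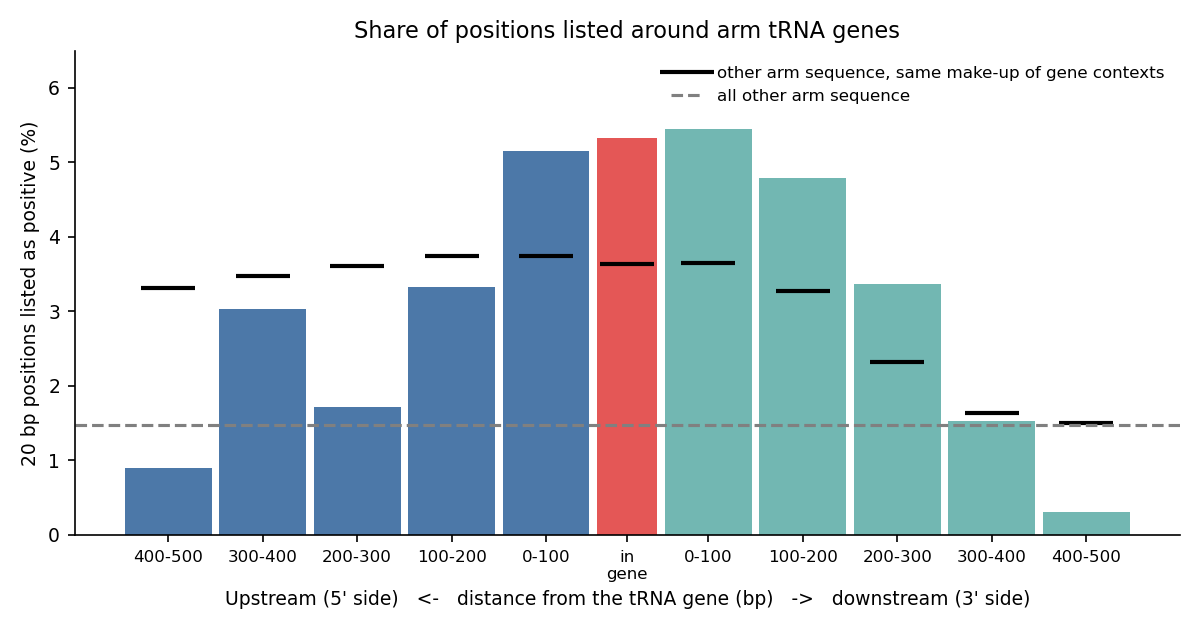
Percent of 20 bp positions that were listed as positive, by distance from the nearest of the 202 arm tRNA genes, with upstream steps in blue, the gene in red and downstream steps in green. Black marks give the share at the same make-up of gene contexts in other arm sequence, and the dashed line is the 1.47% of all other arm sequence. The bars stand above the black marks in the gene (5.34% against 3.63%), in the first 100 bp on both sides and up to 300 bp downstream, and below them from 100 bp onward upstream and from 300 bp onward downstream.

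tRNA windows also differed from the rest of the arms in where they lie relative to protein-coding genes. Of the tRNA windows, 20.1% of positions lay inside a protein-coding gene, against 75.7% in the rest of the arms. Intergenic positions were sorted by the direction of the flanking protein-coding genes. Between convergent genes, 9.22% of tRNA-near positions were listed (138 bins) against 10.9% of other arm positions. Between tandem genes the shares were 3.18% (130 bins) and 2.68%, and between divergent genes 1.57% (46 bins) and 1.31%. Inside protein-coding genes they were 0.978% (21 bins) and 0.813%. With the listing shares of other arm sequence applied to the contexts of the tRNA windows, 328.57 bins would be listed, against the 335 that were, a ratio of 1.02. At an FDR under 0.01 the ratio was 0.628, with 45 bins listed where the context shares give 71.64.

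The ratio of 1.02 joined a surplus near the gene to a shortage farther off. Within 200 bp, tRNA gene included, 228 bins were listed where the context shares give 171.87, a ratio of 1.33. From 200 to 500 bp 107 were listed against 156.7 (0.683), and from 500 to 1000 bp 103 against 191.73 (0.537). Within 100 bp, gene included, the listed share was above that of the same context elsewhere in every intergenic class, with 12.8% against 10.9% for convergent, 4.11% against 2.68% for tandem and 2.34% against 1.31% for divergent sequence. Within 200 bp the ratio was 1.18 without chromosome XV, 1.23 without XVI and 1.06 without both (156 bins against 147.72). Both had the highest tRNA-near shares and were chosen after seeing the data, so a lower ratio without them is in part by construction. The ratio was 0.962 without the 8 tRNA genes that held the most bins. These were picked by their bin counts, so leaving them out also lowers it by construction.

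Similar numbers of bins lay on the 5′ and 3′ side of tRNA genes, and their values were higher on the 3′ side. Upstream, on the side where TFIIIB sits, lay 140 bins (2.82% of positions) at 33 genes, and downstream 152 (3.09%) at 38 genes. At matched contexts the sides differed, with 177.44 bins given by the context shares upstream (ratio 0.789) and 121.85 downstream (ratio 1.25). The median log2 fold change was 0.51 upstream, 0.58 inside the gene and 0.58 downstream, with median SEs of 0.16, 0.18 and 0.18. Without YNCD0020W, which holds the highest bins, the downstream median was 0.58. Of bins upstream, 26 (18.6%) had a log2 fold change of at least 0.6, against 67 (44.1%) downstream, where the share over all arm positions was 0.442% and over listed arm bins 29.3%. Both flanks held bins at only 14 genes. There the downstream median was higher in 9 of 14. Over the 14 genes the downstream less upstream difference had a median of 0.07 on the log2 scale, with a range of -0.16 to 0.24. No error of that median was computed. The downstream SE was also higher at 11 of these 14. A bin enters the table only if its value is large for its SE, so part of a difference in value can come with the SE, and how much was not tested.

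The next protein-coding gene's direction went with the number of bins, as it also did in other arm sequence. Where the upstream neighbour was transcribed toward the tRNA gene, 4.48% of positions in the upstream flank were listed (103 bins, at 22 of 94 genes). Where it was transcribed away, so that its promoter faced the tRNA gene, the share was 1.40% (37 bins, at 11 of 108 genes). Downstream the shares were 3.58% (69 bins, 17 of 79 genes) and 2.78% (83 bins, 21 of 123 genes). tRNA genes with both neighbours pointing toward them had a bin in 18 of 37 cases (48.6%), and those with both pointing away in 13 of 66 (19.7%). Values ran the other way, with medians of 0.48 upstream and 0.53 downstream beside a gene pointing toward the tRNA gene, and 0.56 and 0.63 beside one pointing away. The median SEs were 0.16 and 0.17 against 0.18 and 0.19. Neither contrast was particular to tRNA genes. In other arm sequence, sorted by both flanking genes, 10.9% of positions were listed between convergent and 1.31% between divergent genes. The medians there were 0.53 (median SE 0.16) and 0.64 (median SE 0.20).

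The highest values lay in a single run of bins behind YNCD0020W, a tRNA gene on the right arm of chromosome IV (992832 to 992902, forward strand, build R64). Its 6 bins ran from 992941 to 993060, all downstream. In the authors' deposited table their log2 fold changes were, in order along the chromosome, 0.80, 1.05, 1.23, 1.30, 1.11 and 0.99. The peak bin, 993001 to 993020, had an SE of 0.24 and an adjusted p of 1.68e-05 in the authors' deposited table (DESeq2), and was the highest of all arm bins, a fold of 2.47. These bins gave all 4 tRNA-near values of at least 1, among 15 on the arms. The tRNA gene lies 483 bp from YDR261C-D, inferred from its name and length to be a Ty retrotransposon open reading frame, and YDR262W starts 231 bp downstream. YNCP0022W on the right arm of XVI (856902 to 856974) had a similar layout, with YPR158C-D, likewise inferred to be a Ty reading frame, 645 bp away. Beyond YNCP0022W lies KRE6, for a glucan synthesis protein. In the authors' deposited table its 5 bins, from 857041 to 857140, had values of 0.78, 0.87, 0.84, 0.92 and 0.86, with an adjusted p of 0.000982 at the peak. No bin was listed inside or upstream of either gene. Ty elements are repeated, so some reads there may map to several copies, and how the authors treated them is not stated.

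Of the 12 genes with the highest single bin, 11 had it downstream and 1, YNCM0007C, inside. Over all 60 genes with bins the highest bin lay downstream at 32, upstream at 20 and inside at 8. The 12 were picked by value, and downstream bins had a higher median SE (0.18 against 0.16 upstream), so only higher values could be listed there. IMT4 on V (100133 to 100204), an initiator methionine tRNA gene, held 10 bins, all from 246.5 to 486.5 bp downstream, on the way to VMA3, a subunit of the vacuolar proton pump. In the authors' deposited table its highest value was 0.77 (SE 0.18), with an adjusted p of 0.00135. It lies 52.0 kb from the centromere, near the limit of the arm. SUF4 on VII (779616 to 779687), a glycine tRNA gene, had 2 bins upstream, where the median was 0.48, and 2 downstream at 0.70 and 0.73 in the authors' deposited table. SUF11 on XV (464450 to 464551), a proline tRNA gene, had a single bin, which the authors' deposited table gives as 0.71 (SE 0.22, adjusted p 0.0232). It lay 59.5 bp downstream, inside an annotated protein-coding gene (YOR072W-B overlaps SUF11). The next gene on that side is SGO1, for shugoshin, which protects Rec8 near centromeres in meiosis. SUP16 on XVI (689565 to 689646), a serine tRNA gene next to NOT5, a subunit of the Ccr4-Not complex, had 3 bins with a highest value of 0.71 (SE 0.22) in the authors' deposited table. The other genes of this group were YNCO0021C (0.75), YNCG0046W (0.73), YNCM0007C (0.72), YNCI0007C (0.72), YNCG0016C (0.72) and YNCM0027W (0.71) in the authors' deposited table. From YNCG0046W to SUF11 these peaks differed by less than the SE of a single one, 0.20 to 0.24.

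**Figure D2:**
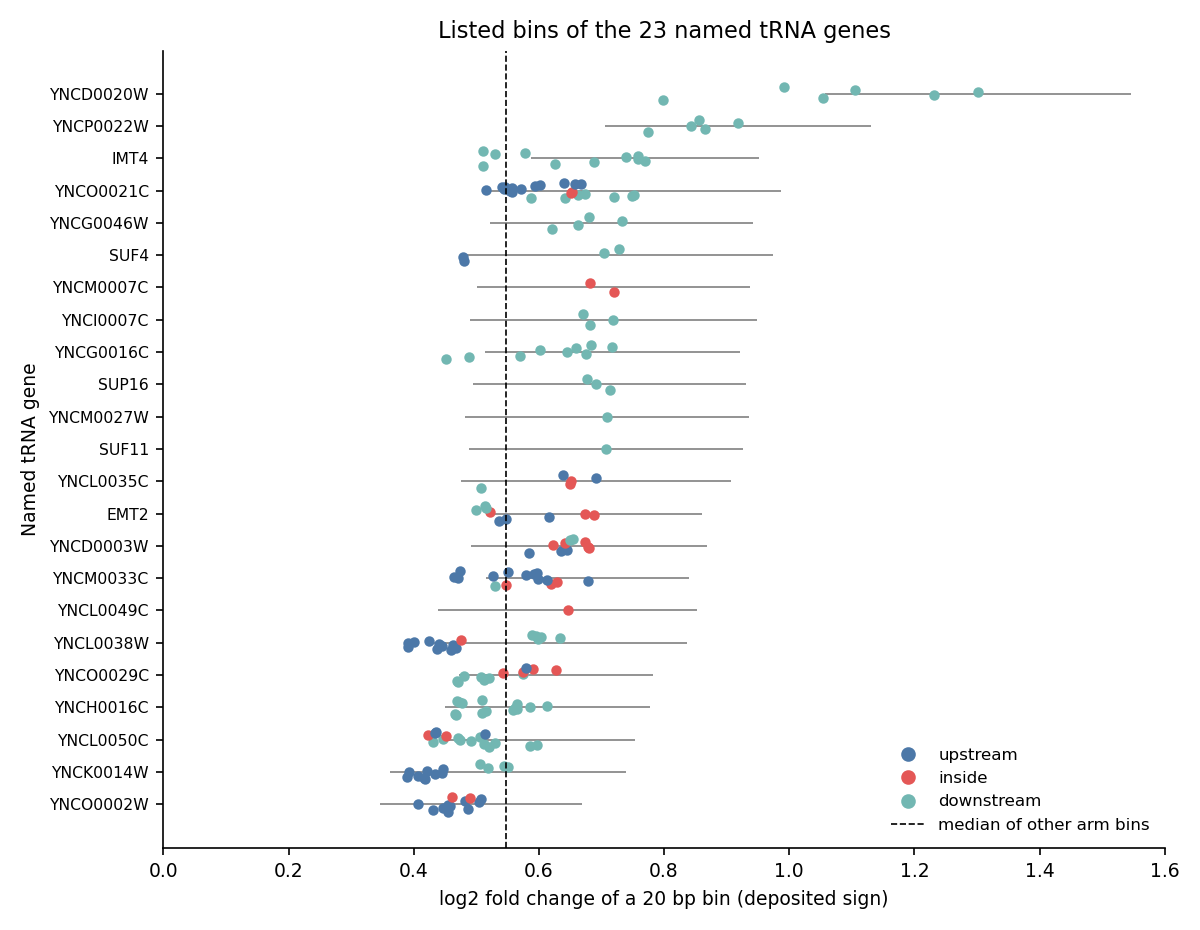
Log2 fold change of each listed bin at the 23 named tRNA genes, coloured by side of the gene, with a grey bar of 1 SE on either side of the highest bin and a dashed line at the median of other arm bins, 0.55. All bins of YNCD0020W and YNCP0022W lie to the right of the line, and those of YNCO0002W, with a highest value of 0.51, to its left.

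Bins were unevenly shared among the 60 genes. The median gene had 4 bins, 13 genes had 1, and 13 had 10 or more. The 8 genes with the most bins together held 120, or 35.8%. YNCO0021C on XV (663812 to 663885, reverse strand) had 22, the most, spread over 640 bp on both sides and inside, with values from 0.52 to 0.75 and a median of 0.62. Its neighbours both point toward it, HEM15, for ferrochelatase of heme synthesis, and MPC54, for a meiotic spindle pole protein. YNCL0038W on XII (734802 to 734875), between MET17 for methionine synthesis and ACO1 for aconitase, had 16. Its 10 upstream bins had a median of 0.44 (median SE 0.13) and its 5 downstream bins 0.60 (median SE 0.20). YNCL0050C, also on XII (975983 to 976056), had 16 bins, of which 11 lay downstream, on the side of SPP382, a splicing factor. Of the remaining genes with most bins, YNCK0014W on XI (379680 to 379753) had 13 and YNCO0002W on XV (113802 to 113874) had 12, with low medians of 0.43 and 0.46.

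A few of these genes held unbroken runs. The longest, 300 bp, crossed YNCM0033C on XIII (747892 to 747963), which lies between the convergent genes RNT1, for RNase III, and DFG5. Along the run the values in the authors' deposited table went from 0.53 just downstream to 0.68 just upstream of the gene (SE 0.16, adjusted p 0.00166), down to 0.46 farther upstream (748041 to 748060) and up again to 0.60 (748121 to 748140). YNCH0016C on VIII (475706 to 475778) had a run of 280 bp, all downstream, from 75.5 to 335.5 bp. Its values were 0.51 at the near end, 0.47 at 95.5 bp, 0.61 at 175.5 bp and 0.47 at the far end, in the authors' deposited table. YNCO0029C on XV (854187 to 854259), between YOR289W and SNF2, for the ATPase of the SWI/SNF chromatin remodeller, had a run of 240 bp. Its peak lay inside the gene, and the authors' deposited table gives it as 0.63 (SE 0.15, adjusted p 0.00249). In each of these runs neighbouring bins differed by less than 1 SE, and such bins share reads and are not separate measurements.

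**Figure D3:**
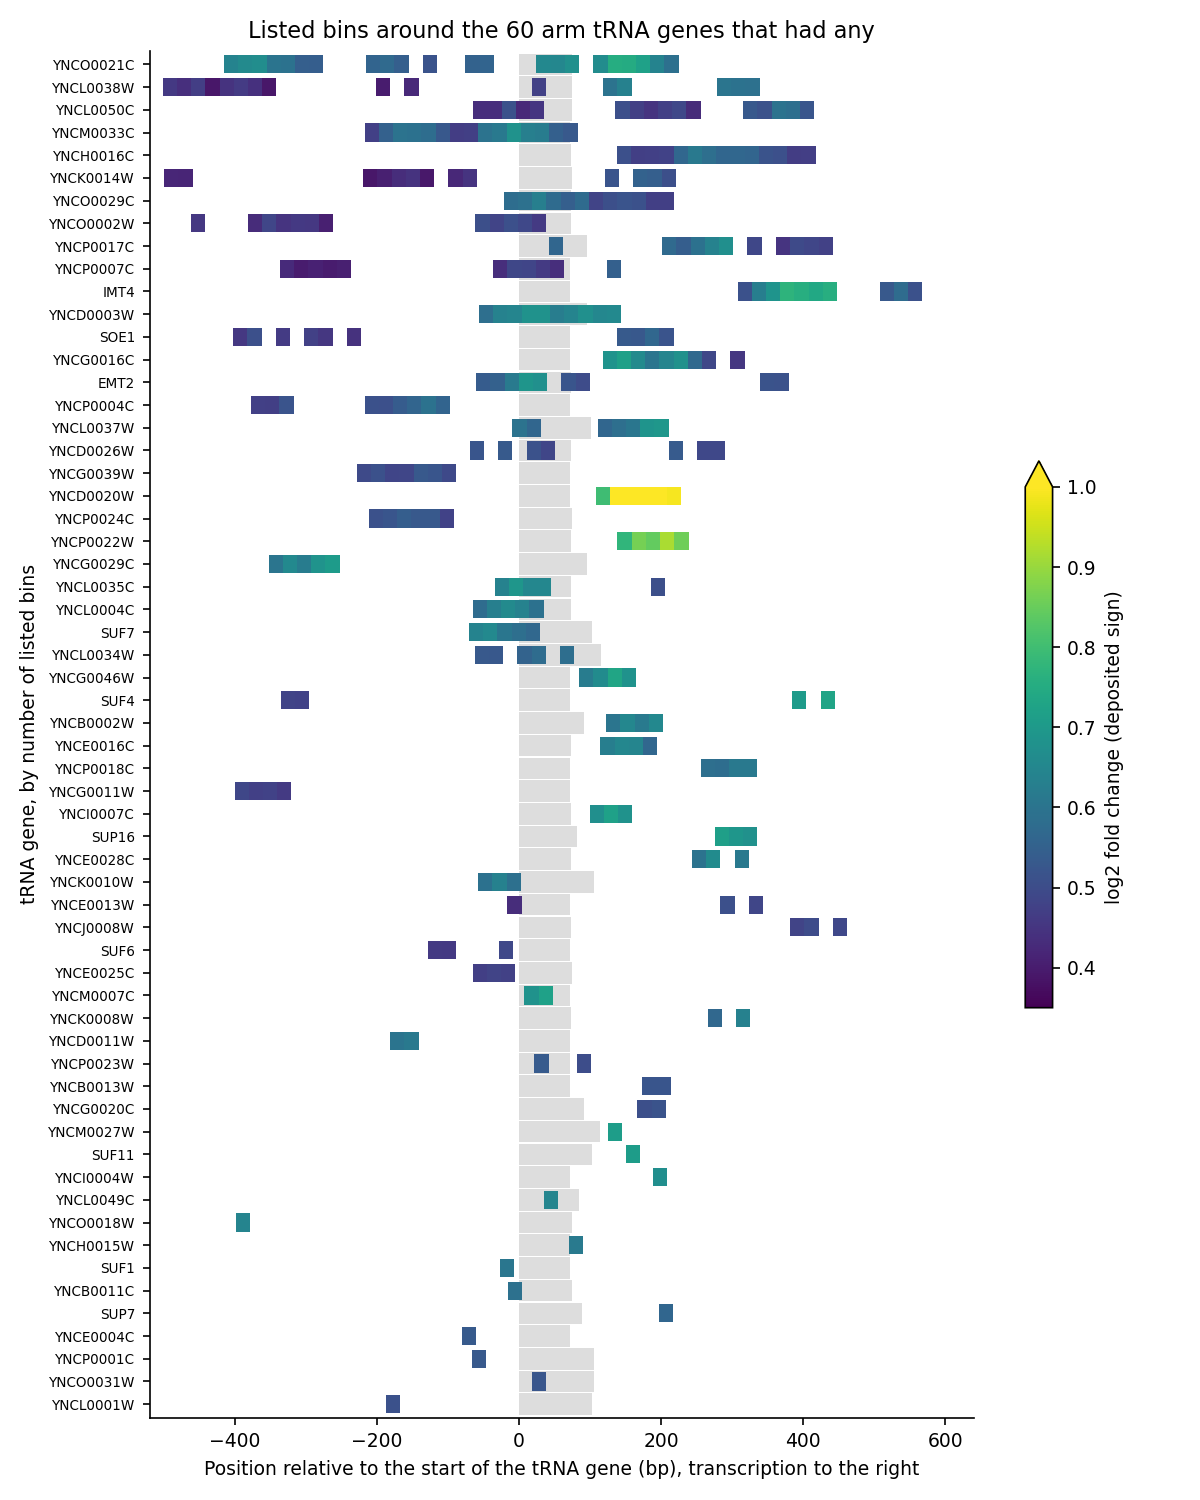
Listed 20 bp bins around the 60 arm tRNA genes that had any, one row per gene in order of bin number, placed by distance from the start of the gene with transcription to the right. Grey bars mark the gene and colour gives the log2 fold change, with YNCD0020W alone reaching the top of the scale. Most rows hold a run of bins on 1 side of the gene, and 14 rows have bins on both.

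Inside the tRNA gene, the middle range of values was 0.52 to 0.65, about as wide as the 0.50 to 0.61 of other arm bins. The 43 bins there had a median of 0.58 and a highest value of 0.72. The highest in the authors' deposited table were YNCM0007C (0.72, SE 0.22), EMT2 (0.69, SE 0.17), YNCD0003W (0.68, SE 0.19), YNCO0021C (0.65, SE 0.19), YNCL0035C (0.65, SE 0.21) and YNCL0049C (0.65, SE 0.21). EMT2 on XV (976421 to 976493) encodes an elongator methionine tRNA and lies 530 bp from YOR343W-B, inferred to be a Ty reading frame. Its bins peaked at the start of the gene, with 0.55 and 0.62 in the last upstream bins, 0.69 and 0.67 inside, and 0.50 at 17.5 bp downstream, in the authors' deposited table. YNCD0003W on IV (359577 to 359672) was covered from end to end by a run of 10 bins, 5 of them with their middle inside, which ranged from 0.58 to 0.68 in the authors' deposited table. tRNA genes of 1 family can be nearly identical, so bins inside them can hold reads from several copies. How uniquely reads map in the flanks was not tested.

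The share of tRNA genes with bins differed widely between chromosomes. On XVI 9 of 14 tRNA genes had a bin (64.3%) and on XV 8 of 13 (61.5%). On XIV it was 1 of 11 (9.09%), SUF6, a glycine tRNA gene, and on X 2 of 18 (11.1%). By position, 8.31% of tRNA-near sequence was listed on XV and 6.89% on XVI, against 0.461% on X and 0.503% on XIV. Other arm sequence varied less over these chromosomes, at 1.40%, 1.38%, 1.18% and 1.26%. The tRNA-near share was above that of other arm sequence on 10 of 13 chromosomes, with ratios from 0.389 on X to 5.94 on XV. Set against the same make-up of contexts on the same chromosome, it was above on 6 of 13, with a median ratio of 0.833 and a range of 0.141 on XIV to 3.58 on VIII, where 2 of 5 genes had bins. On VIII, 14 of the 15 bins lay at YNCH0016C. The median log2 fold change of tRNA-near bins less that of other arm bins was above 0 on 6 of 13 chromosomes, ranging from -0.09 to 0.11, with a mean of 0.004 (SD 0.06, n = 13 chromosomes). The ends of that range rest on few bins, 3 at 1 gene on XIV and 4 at 2 genes on IX.

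**Figure D4:**
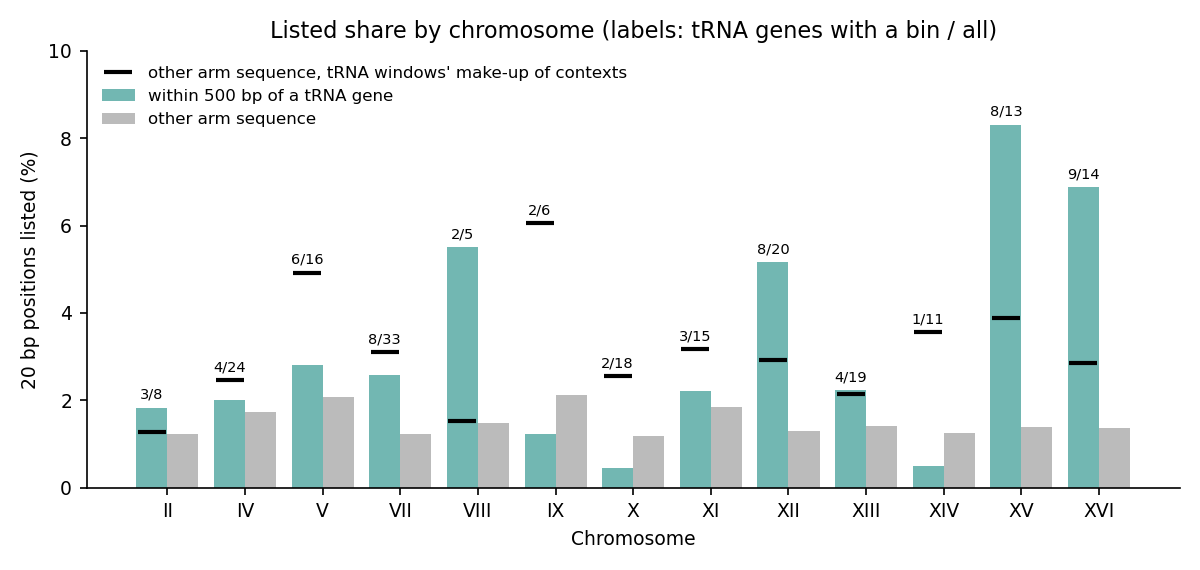
Percent of 20 bp positions listed within 500 bp of a tRNA gene (green) and in other arm sequence (grey) on each of the 13 chromosomes, with black marks for other arm sequence at the contexts of the tRNA windows and labels for the number of tRNA genes with a bin out of all. XV (8.31%) and XVI (6.89%) stand highest, and IX, X and XIV lie under both comparisons.

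By length and distance from the centromere, tRNA genes had bins in similar shares. Genes of up to 76 bp had one in 43 of 141 cases (30.5%) and longer ones in 17 of 61 (27.9%). By distance from the centromere the shares were 30.4% at 50 to 100 kb, 27.5% at 100 to 200 kb, 28.2% at 200 to 400 kb and 33.3% beyond, so no trend along the arm was seen. No share is given by nearness to Ty elements, because the inference from hyphenated names found none on V, IX, X, XI and XIII and passed over reading frames of like length such as YML045W, 492 bp from YNCM0007C. Where the nearer protein-coding gene was over 1000 bp away, 7 of 13 genes had a bin (53.8%), compared with 26.7% of the 86 genes with a neighbour within 250 bp. In between, the shares were 30.4% of 69 genes at 250 to 500 bp and 26.5% of 34 at 500 to 1000 bp, so only the small last class differed.

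Other small RNA genes of the arms were looked at beside the tRNA genes. Within 500 bp of snoRNA and snRNA genes, which RNA polymerase II mostly transcribes, and away from tRNA genes, 28 bins at 8 genes were listed, 0.80% of positions there. Their median log2 fold change was 0.68 (median SE 0.21), above the 0.55 (median SE 0.17) at tRNA genes, and their highest 1.23. The higher median came with a higher SE, and no error of the gap between the medians was computed. The share of 0.80% was not matched for gene context, and such genes without a bin were not counted. Of the other genes that RNA polymerase III transcribes, SCR1 on V (441987 to 442508), for the RNA of the signal recognition particle, had 9 bins within 500 bp, none of them also near a tRNA gene. Their values ran from 0.47 to 0.52 with a median SE of 0.16, in the authors' deposited table. RPR1, for the RNA of RNase P, lies too near the centromere of V to count as arm and had 3 bins with a median of 0.52. SNR6 for the U6 RNA, SNR52, RNA170 and ZOD1 had none within 500 bp, their nearest bins lying 2474.5 bp or more away.

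Of the 275 nuclear tRNA genes, 73 were not on the arms as defined. Of these, 46 lay within 50 kb of a centromere, 24 on I, III or VI, 1 within 20 kb of an end, and 2, YNCO0019W and SUF5, in the stretch of XV left out. SUF5 (594354 to 594425) had 21 bins within 500 bp in that stretch, and all 21 were negative, from -1.001 to -0.690. YNCO0019W had none. SUF5 is thus a tRNA gene far from a centromere with the opposite sign to the 60 genes described here. That contrast follows in part from leaving out a stretch known to be negative. Whether the negative bins have to do with the tRNA gene itself was not tested.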

How the data were processed

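Rec8 ChEC-seq was measured in 3 WT and 3 ctf19-9A cultures. The submitters' processing notes name DESeq2, deepTools 3.4.3, Bowtie2 2.5.0 and FastQC 0.11.9, with builds R64 and sacCer3, and no settings are known. Per the file headers, the authors deposited a p-value, an FDR (adjusted p-value), a log2 fold change and a shrunken log2 fold change for each 20 bp bin. Bins count as called by the authors' FDR under 0.05 (largest 0.0500). No test was added: bins are correlated and the table has no values per sample. Genes, strands (from the last letter of systematic names) and tRNA genes came from the RefSeq table of R64. It pairs no nuclear tRNA gene with an anticodon, so planned groups by amino acid were dropped, and 33 Ty reading frames were inferred from hyphenated names and a length of 4500 bp or more, a list that is incomplete. Each bin went to its nearest tRNA gene. Chromosome ends were the last gene or bin. SEs were the log2 fold change over the normal deviate of p. Functions were tested on simulated data (Python 3.11.15, pandas 2.3.3, scipy 1.17.1).

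Named tRNA genes were the 12 with the highest bin, the 8 with most bins, the 6 with the smallest adjusted p and the 6 highest inside the gene, 23 in all, and the other RNA polymerase III genes of a set list. Members, lists and rules were chosen with earlier results of these data known. Depth per sample is unknown, so precision is given only by the authors' p-values.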

Additional observations from a re-analysis of the deposited data

How the results depend on the processing

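The median of the 335 bins and its difference of 0.001 from other arm bins moved by less than the median SE of a bin (0.17) under every alternative but 1: with the sign turned the median was -0.55, and 0 bins were then positive. The difference changed sign between settings, from -0.016 without bins inside protein-coding genes to 0.037 at an FDR under 0.01. At an FDR under 0.01, 45 bins, 0.422% of positions and 6.44% of genes were left, and 29.7% of flank bins lay upstream. With a log2 fold change of at least 0.6 these were 111 bins, 1.04%, 17.8% and 28.0%. With 1 bin per region of touching bins 107 bins were left, and its share of positions was not computed. The listed share was 4.43% with a window of 250 bp, 2.15% with 1000 bp, and 3.68% without bins inside protein-coding genes. The upstream share was 55.2% with 1000 bp. With each chromosome left out in turn the listed share ran from 2.77%, without XV, to 3.38%, and the share of genes from 27.1% to 31.5%. The other 127 of 143 values stayed within the SE or the 95% interval of the main value, or, for counts, within 1.5 times. This count is a weak check. The SE of a bin is wide beside the quartiles of the 335 bins, 0.49 and 0.63. The intervals for positions and flank bins treat correlated bins as independent. Some settings, such as shrunken values for the listed share, cannot change the value. Leaving out YNCD0020W and, for the context ratios, XV, XVI or the genes with most bins were chosen after seeing the data. Leaving out tRNA genes near Ty elements covered only the inferred ones, on part of the chromosomes. Without XV and XVI the context ratio of all windows was 0.795. No paired analysis was possible because the table has no values per sample, and for the same reason no replicate could be left out.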
